A study of Mus musculus with 8 samples.

Results

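A set of 10 genes that store, release and take up fatty acids was followed through mesenchymal cells of the mouse liver: the droplet coat proteins Plin2, Plin4 and Plin5, the triglyceride synthases Dgat1 and Dgat2, the triglyceride lipase Pnpla2, the uptake and binding genes Lpl, Cd36 and Fabp4, and the transcription factor Pparg. They were chosen by name, with earlier results of these data known. All 10 were found among the 30395 gene identifiers listed, and all 10 were among the 16446 genes tested, which had at least 1 CPM (reads per 1000000 reads of the library) in at least 2 libraries. RNA was sequenced by SMART-Seq2 from 2 sorted populations, Gli1+ peribiliary mesenchymal cells and hepatic stellate cells. Each population was taken without injury and 5 d after bile duct ligation (BDL), an operation that blocks bile flow and scars the tissue around the ducts. Each of the 4 groups held 2 libraries. Per the labels every mouse, stellate and uninjured groups included, was 8 weeks old, of strain Mixed (C57BL/6, SWR/J) and of genotype Gli1:CreER+/-; Ai9+/-. Here Gli1 drives a drug-inducible Cre, and the Ai9 allele makes a red protein once Cre has acted, so that marking depends on Gli1 expression. The labels give neither the inducing treatment nor the sort gates. They do not say that replicates were separate animals, and the p-values below therefore refer to spread among these libraries, part of which may be technical.

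Triglyceride is kept in lipid droplets. DGAT enzymes add the last fatty acid to diacylglycerol, perilipins coat the droplet and control access of lipases to it, and the lipase that Pnpla2 encodes starts its breakdown. Fatty acids reach a cell after lipoprotein lipase frees them from circulating particles, pass the membrane with the help of CD36, and are carried inside by binding proteins such as FABP4. In the liver, quiescent stellate cells are known for droplets that hold retinyl esters beside triglyceride, and they are known to lose them as they turn into myofibroblasts. PPARγ, the product of Pparg, drives fat cell differentiation, and Plin2, Cd36, Lpl and Fabp4 are known targets of PPAR factors.

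The libraries held 11261775 to 19180370 reads, so that 3 reads, the upper limit that a count of 0 allows, were worth 0.156 to 0.266 CPM. Such limits cover counting error only. Lrat, which makes retinyl esters in stellate cells, measured 1832 and 2784 CPM in uninjured and 2161 and 1907 CPM in BDL stellate cells, against 5.16 to 35.9 CPM over the 4 Gli1+ libraries. Gli1 measured 2.39 to 14.9 CPM in the Gli1+ libraries and 0 to 0.0584 CPM in the stellate ones. Every library also held transcripts of other cell types. Summed over 12 hepatocyte markers the CPM ran from 67.5 to 1195 in the uninjured libraries and from 1684 to 16442 after BDL. Over 12 endothelial markers the sum was 1131 and 210 in uninjured Gli1+, 563 and 138 in uninjured stellate, 715 and 1439 in BDL Gli1+, and 2851 and 2001 in BDL stellate cells. The first uninjured stellate library held 11317 CPM of 12 macrophage markers and the second held 67.1. Mesothelial and cholangiocyte markers were high in the Gli1+ libraries, with sums of 3193 to 11020 and 3278 to 15705 CPM, against 4.4 to 9.91 and 3.73 to 756 in the stellate ones. Both lists hold Krt19, and Spp1 gave 743 of the 756 CPM. In bulk RNA, fewer cells of a type and less RNA per cell cannot be told apart.

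In uninjured liver Fabp4, the adipocyte and capillary fatty acid binding protein, was higher in Gli1+ cells than in stellate cells, at 52.8 ± 40.0 against 3.03 ± 0.301 CPM (SD, n = 2). After BDL the level of Fabp4 in stellate cells rose to 89.8 ± 30.3 CPM, and the populations then overlapped. Pparg was higher in Gli1+ than in stellate cells after BDL, at 35.1 ± 22.6 against 0.385 ± 0.297 CPM. Plin2, the coat protein found on droplets of nearly every cell type, passed the threshold in no comparison. Its mean per kb of annotated exon was the highest of the 10 genes in every group, though not in every library. For Fabp4 that length covers the whole gene span, so its place in this order is uncertain. The calls of Fabp4 and Pparg above were the only 3 among the 50 combinations of a gene and a comparison. The test was limma-trend on log2(CPM + 1) with Benjamini-Hochberg adjustment over all 16446 genes at 0.05.

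**Figure D1:**
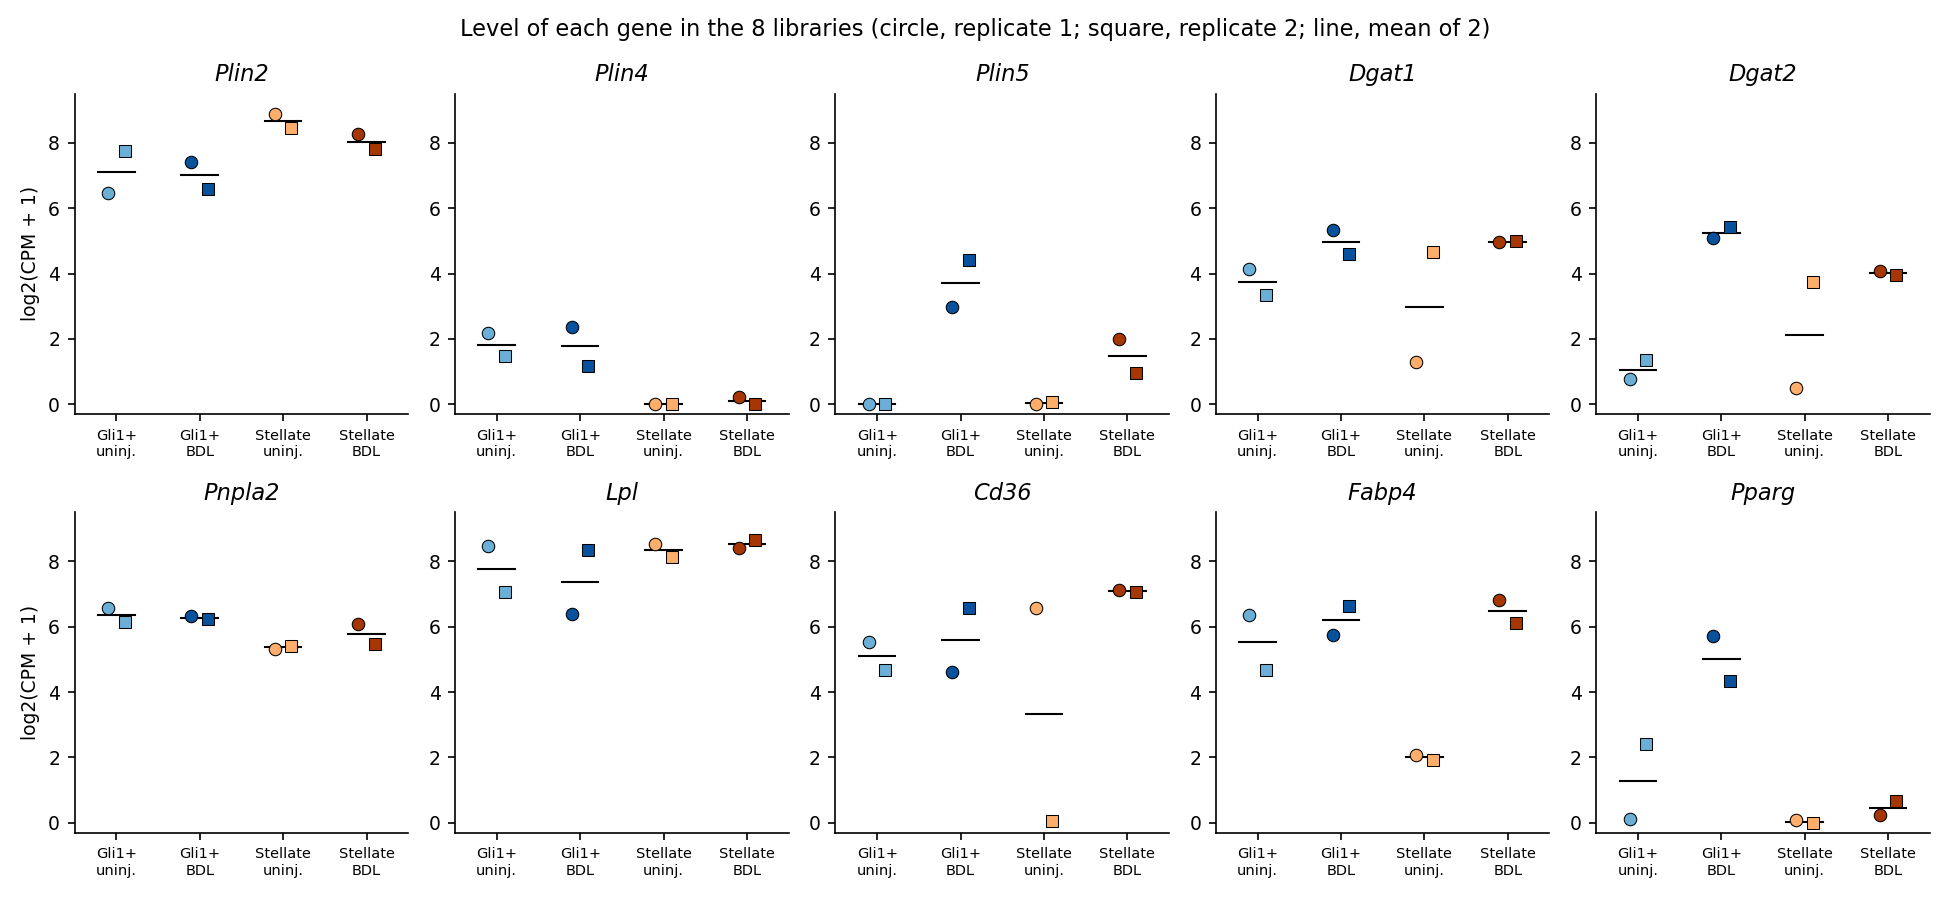
Level of each of the 10 genes in the 8 libraries as log2(CPM + 1), 1 panel per gene, with a circle for replicate 1, a square for replicate 2 and a line at the mean of the 2 log values of each group. Plin2, Pnpla2 and Lpl were present in all 8 libraries, whereas Plin4, Plin5 and Pparg were at or near 0 in at least 1 group.

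The 3 coat protein genes lay in different ranges. Plin2 (chromosome 4, 86648386 to 86670060, minus strand, all gene coordinates in mm10 from GENCODE vM21) measured 87.0 and 213 CPM in uninjured and 170 and 95.8 CPM in BDL Gli1+ cells. In stellate cells it measured 465 and 350 CPM before and 305 and 221 CPM after BDL. Both stellate libraries lay above both Gli1+ libraries in uninjured and in BDL liver, and both BDL stellate libraries lay below both uninjured ones. The log2 difference of Gli1+ from stellate cells was -1.56 ± 0.48 (SE) in uninjured liver (limma adjusted p = 0.0744) and -1.02 ± 0.48 after BDL (limma adjusted p = 0.292). In the uninjured comparison Plin2 passed the threshold with 4 other scalings or models, among them TMM (limma adjusted p = 0.0496) and DESeq2 (adjusted p = 0.0176), and without the second uninjured Gli1+ library (limma adjusted p = 0.0391). The response to BDL was -0.63 ± 0.48 in stellate cells (limma adjusted p = 0.672) and -0.09 ± 0.48 in Gli1+ cells, where the groups overlapped.

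Plin4 (chromosome 17, 56100591 to 56109803, minus strand), a coat protein of fat cells and muscle, measured 3.55 and 1.77 CPM in uninjured and 4.19 and 1.26 CPM in BDL Gli1+ cells. In stellate cells it was at 0 in 3 libraries and at 0.175 CPM, or 3 reads, in the first BDL library. Gli1+ and stellate libraries did not overlap in either condition, and neither difference passed (limma adjusted p = 0.101 and 0.17). Pooled over the libraries of a group, 71 reads stood against 0 in uninjured liver, at least 29.2-fold higher in Gli1+ cells when the stellate group is set at 3 reads. After BDL 73 reads stood against 3, a ratio of 24.2 with an exact Poisson interval at 95% of 7.95 to 120 that covers counting error only. The gene overlaps Hdgfl2 on the other strand, and the strand setting of the counting is not given in the sources used here. Hdgfl2 measured 24.8 to 59.7 CPM in the stellate libraries and 33.1 to 43.5 CPM in the Gli1+ ones.

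Plin5 (chromosome 17, 56111601 to 56117596, minus strand), which tethers droplets to mitochondria in oxidative tissues such as liver and heart, lies 1797 bases from Plin4. It measured 0 CPM in both uninjured Gli1+ libraries, 0 and 0.0521 CPM in the uninjured stellate ones, 6.93 and 20.4 CPM in BDL Gli1+ cells and 2.98 and 0.934 CPM in BDL stellate cells. All 4 BDL libraries lay above all 4 uninjured ones. In Gli1+ cells 427 reads stood against 0, at least 141-fold higher after BDL. In stellate cells 62 reads stood against 1, a ratio of 76.2 with a counting interval of 13.2 to 3059. On the log2(CPM + 1) scale, which understates changes of low genes, the response was 3.70 ± 0.72 in Gli1+ cells (limma adjusted p = 0.0817, unadjusted 0.000691) and 1.44 ± 0.72 in stellate cells (limma adjusted p = 0.486). DESeq2 on the recovered reads called Plin5 in Gli1+ cells (adjusted p = 0.000833), the only 1 of 19 alternatives to do so. On the same reads edgeR (adjusted p = 0.355) and limma-voom (adjusted p = 0.168) did not. Hepatocyte marker sums moved with it: 1195 and 330 CPM before and 2970 and 16442 after BDL in Gli1+ cells, and 237 and 67.5 before and 1801 and 1684 after in stellate cells. The median of the 12 hepatocyte markers changed by 4.86 and 3.91 on the log2 scale in the 2 populations, with none of the 12 called. Per 1000 CPM of hepatocyte markers, Plin5 measured 0 to 0.772 CPM in the uninjured libraries, 2.33 and 1.24 in BDL Gli1+ and 1.65 and 0.555 in BDL stellate cells. The part of hepatocyte RNA in the Plin5 values was not tested.

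Promoter windows of 6 of the 10 genes, 9 windows in all, were given by RefSeq for GRCm38.p6. They were searched for the core AGGTCA of nuclear receptor sites on either strand, because PPAR factors bind paired copies of it. The core was found in 5 of the 9 windows, belonging to Plin2, Plin5, Cd36 and Pparg, against 14% of all 32851 mouse windows of 250 bases. The full element, 2 copies of AGGTCA in the same direction with 1 base between them, was found in 0 of the 9 and in 0.0335% of all windows. Such a match describes letters, not a site in use. The stretches with the core are printed here for the droplet coat genes Plin2 and Plin5 and for the uptake receptor gene Cd36. Each is 200 bases long, ends 51 bases before the start, is written on the strand of the gene and has the core in capitals (TGACCT where it lies on the opposite strand).
Plin2, chr4:86670110-86670309, minus strand: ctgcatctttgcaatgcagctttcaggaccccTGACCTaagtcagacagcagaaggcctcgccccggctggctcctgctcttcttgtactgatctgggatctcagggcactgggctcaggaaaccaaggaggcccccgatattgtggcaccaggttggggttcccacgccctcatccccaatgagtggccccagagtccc
Plin5, chr17:56117599-56117798, minus strand: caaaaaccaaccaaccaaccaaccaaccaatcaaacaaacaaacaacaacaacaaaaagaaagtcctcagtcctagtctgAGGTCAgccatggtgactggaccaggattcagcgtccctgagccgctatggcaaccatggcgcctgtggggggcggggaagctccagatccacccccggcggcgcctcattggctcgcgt
Cd36, chr5:17835947-17836146, minus strand: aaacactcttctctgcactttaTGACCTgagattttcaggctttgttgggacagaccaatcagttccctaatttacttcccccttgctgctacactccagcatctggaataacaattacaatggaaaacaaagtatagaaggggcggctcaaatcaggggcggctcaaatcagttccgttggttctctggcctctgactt
The core begins 218 bases before the start in Plin2, 170 in Plin5 and 228 in Cd36, whose start here lies inside the gene's GENCODE span. No measurement of chromatin or of factor binding bears on these sequences here.

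The triglyceride synthases were low before injury and differed between replicates. Dgat2 (chromosome 7, 99153658 to 99182719, minus strand), the enzyme tied to newly made fatty acids in liver and fat, measured 0.710 and 1.54 CPM in uninjured Gli1+ cells and 32.6 and 42.1 CPM after BDL. In stellate cells it measured 0.428 and 12.4 CPM before and 15.8 and 14.5 CPM after BDL. Both BDL groups lay wholly above their uninjured groups, and both BDL Gli1+ libraries lay above both BDL stellate ones. The response was 4.19 ± 1.05 in Gli1+ cells (limma adjusted p = 0.142, unadjusted 0.00344) and 1.88 ± 1.05 in stellate cells (limma adjusted p = 0.538). DESeq2 called the former (adjusted p = 0.00749), the only 1 of 19 alternatives to do so, while edgeR (adjusted p = 0.517) and limma-voom (adjusted p = 0.274) did not. Per 1000 CPM of hepatocyte markers Dgat2 measured 0.594 and 4.66 CPM in uninjured and 11.0 and 2.56 in BDL Gli1+ cells, values that overlap. In stellate cells the same ratio was 1.81 and 184 before and 8.79 and 8.63 after BDL. The part of hepatocyte RNA in the Dgat2 values was not tested.

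Dgat1 (chromosome 15, 76502015 to 76511953, minus strand), the synthase of the endoplasmic reticulum that also handles fatty acids taken up from outside, measured 16.5 and 9.13 CPM in uninjured and 39.3 and 23.1 CPM in BDL Gli1+ cells. In stellate cells it measured 1.47 and 24.1 CPM before and 29.9 and 30.6 CPM after BDL. BDL libraries lay above the uninjured ones in both populations, with no call (1.23 ± 1.0 in Gli1+ and 1.99 ± 1.0 in stellate cells, limma adjusted p = 0.767 and 0.487). Between the populations Dgat1 overlapped in uninjured liver, and the log2 difference after BDL was -0.00 ± 1.0. Of the 2 uninjured stellate libraries the first was the lower for both synthases.

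Pnpla2 (chromosome 7, 141455198 to 141460743, plus strand), the adipose triglyceride lipase, was among the steadiest of the 10 genes. It measured 93.9 and 69.2 CPM in uninjured and 78.4 and 74.7 CPM in BDL Gli1+ cells, beside 39.2 and 41.1 CPM in uninjured and 66.3 and 43.2 CPM in BDL stellate cells. All 4 Gli1+ libraries lay above all 4 stellate ones. The log2 difference was 0.99 ± 0.37 in uninjured liver and 0.51 ± 0.37 after BDL, and neither passed (limma adjusted p = 0.144 and 0.552). The response to BDL was -0.07 ± 0.37 in Gli1+ and 0.41 ± 0.37 in stellate cells.

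G0s2, the protein inhibitor of that lipase, differed in the opposite sense and did pass. It measured 63.0 and 20.5 CPM in uninjured Gli1+ against 562 and 944 CPM in uninjured stellate cells (-4.30 ± 0.52, limma adjusted p = 0.00173). After BDL it measured 42.6 and 59.3 against 723 and 514 CPM (-3.57 ± 0.52, limma adjusted p = 0.00625). The groups did not overlap in either condition.

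Lpl (chromosome 8, 68880491 to 68907448, plus strand), whose secreted product frees fatty acids from triglyceride-rich lipoproteins, was abundant in both populations. It measured 352 and 133 CPM in uninjured Gli1+, 370 and 276 in uninjured stellate, 83.3 and 321 in BDL Gli1+ and 334 and 402 in BDL stellate cells. The populations overlapped in uninjured liver, and after BDL both stellate libraries lay above both Gli1+ ones (-1.16 ± 0.64, limma adjusted p = 0.395). The 2 libraries of each Gli1+ group differed by more than the stellate ones did. Of the BDL Gli1+ libraries the second, where Lpl was higher, also held adipocyte transcripts, given below with Pparg.

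Cd36 (chromosome 5, 17781690 to 17888801, minus strand), a scavenger receptor that takes up long-chain fatty acids and is also made by macrophages and endothelial cells, was the least reproducible member. Its 2 uninjured stellate libraries held 1525 reads and 1 read, or 93.3 and 0.0521 CPM. It measured 45.6 and 24.6 CPM in uninjured Gli1+, 23.2 and 93.1 in BDL Gli1+ and 139 and 131 in BDL stellate cells. Both BDL stellate libraries lay above every other library, while the response in stellate cells was not called (3.77 ± 1.69, limma adjusted p = 0.429). Stab2, a sinusoidal endothelial receptor and the gene most like Cd36 over the 8 libraries (Pearson r = 0.979), measured 117 and 0 CPM in the same 2 uninjured stellate libraries. Endothelial marker sums there were 563 and 138 CPM, and macrophage sums 11317 and 67.1 CPM. Without the first of them Cd36 passed in stellate cells after BDL (7.02, limma adjusted p = 0.00971) and in uninjured Gli1+ against stellate cells (5.04, limma adjusted p = 0.00621), each then resting on a lone stellate library assumed to vary like the other groups. Without the second, the uninjured difference was -1.45 (limma adjusted p = 0.267). Macrophage sums in the other groups were 3437 and 1675 CPM in uninjured Gli1+, 1797 and 2599 in BDL Gli1+ and 1818 and 1234 in BDL stellate cells. Per 1000 CPM of macrophage markers Cd36 measured 8.24 and 0.777 CPM in uninjured and 76.5 and 107 CPM in BDL stellate cells. Per 1000 CPM of endothelial markers it measured 166 and 0.378 CPM before and 48.8 and 65.7 CPM after BDL there. The part of macrophage and endothelial RNA in Cd36 was not tested.

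Fabp4 (chromosome 3, 10204088 to 10208576, minus strand) measured 81.1 and 24.5 CPM in Gli1+ cells and 3.24 and 2.82 CPM in stellate cells of uninjured liver. It measured 53.0 and 97.4 CPM in BDL Gli1+ cells and 111 and 68.4 CPM in BDL stellate cells. The uninjured stellate libraries lay below the other 6, which overlapped. The uninjured difference was 3.51 ± 0.63 (limma adjusted p = 0.00984), and the response in stellate cells was 4.46 ± 0.63 (limma adjusted p = 0.0414). After BDL the populations differed by -0.28 ± 0.63 (limma adjusted p = 0.891), and the response in Gli1+ cells was 0.67 ± 0.63 (limma adjusted p = 0.805). The test of the difference between the 2 responses gave -3.78 ± 0.90, which did not pass (limma adjusted p = 0.376, unadjusted 0.00246).

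Endothelial markers moved with Fabp4 in stellate cells, where their sum went from 563 and 138 CPM to 2851 and 2001 CPM. The median of the 12 changed by 3.18 on the log2 scale, and none of the 12 was called. Podxl, outside that list and named below as endothelial and for its likeness to Fabp4, was called. It went from 0.0612 and 0.0521 to 104 and 75.0 CPM in stellate cells (6.4 ± 0.59, limma adjusted p = 0.00848). Per 1000 CPM of endothelial markers Fabp4 measured 5.76 and 20.4 CPM in uninjured and 39.0 and 34.2 CPM in BDL stellate cells. In Gli1+ cells that ratio was 71.7 and 117 before and 74.1 and 67.7 after BDL. All 4 Gli1+ values and both BDL stellate values lay above both uninjured stellate values. The part of endothelial RNA in Fabp4 was not tested. The call in uninjured liver was lost with limma-voom (adjusted p = 0.155), with only the 2 groups fitted (0.17) and without the first uninjured Gli1+ library (0.059). The stellate response was less stable: 13 of 19 alternatives left its adjusted p above 0.05, from 0.0528 with TMM to 0.478 without the first BDL stellate library.

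Pparg (chromosome 6, 115360951 to 115490399, plus strand) was nearly absent from stellate cells. It was represented there by 1 and 0 reads in the uninjured libraries and by 3 and 7 reads after BDL, or 0 to 0.595 CPM over the 4. In Gli1+ cells it measured 0.0888 and 4.34 CPM before BDL and 51.1 and 19.1 CPM after, the latter from 634 and 319 reads. Both BDL Gli1+ libraries lay above all 6 others. The difference between populations after BDL was 4.56 ± 0.92 (limma adjusted p = 0.021). It was lost with edgeR (adjusted p = 0.174), with limma-voom (0.0909), with no filter (0.122) and without any of the 4 BDL libraries in turn (0.0629 to 0.178). The response in Gli1+ cells was 3.75 ± 0.92, which did not pass (limma adjusted p = 0.137, unadjusted 0.00302). In stellate cells 10 reads after BDL stood against 1, a ratio of 12.3 with a counting interval of 1.75 to 534.

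Adipocyte markers were read beside Pparg because it is a fat cell factor. In the second BDL Gli1+ library all 10 adipocyte markers were detected, with Cfd at 183, Adipoq at 10.9, Retn at 5.51 and Plin1 at 2.22 CPM. In the first BDL Gli1+ library 4 of the 10 were at 0, Retn and Plin1 among them, with Adipoq at 0.0806 and Cfd at 1.37 CPM. The marker sums were 46.2 CPM in the first library and 362 in the second, while Pparg was 51.1 CPM in the first and 19.1 in the second. Lpl, Cd36 and Fabp4 were higher in the second, at 321, 93.1 and 97.4 CPM against 83.3, 23.2 and 53.0. Plin5 and Dgat2 were higher there too, and Plin2, Plin4, Dgat1 and Pnpla2 were lower. Hepatocyte and endothelial sums were also higher in the second library, at 16442 and 1439 CPM against 2970 and 715. In the uninjured Gli1+ libraries 8 and 7 of the 10 adipocyte markers were at 0, and the sums of 144 and 121 CPM came mostly from Car3 and Lipe. Adipoq was at 0 in all 4 stellate libraries. Cholangiocyte markers were summed too, at 4095 and 3278 CPM before and 15705 and 7627 CPM after BDL in Gli1+ cells. Spp1 gave 2140 and 259 CPM of the former and 10259 and 5167 CPM of the latter. The other 7 markers summed to 1954 and 3018 CPM before and 5446 and 2460 CPM after BDL, which overlap. Of those 7, Krt19, Krt7 and Cftr overlapped, while Epcam, Tspan8, Sox9 and Cldn4 were each higher after BDL without overlap. Epcam went from 211 and 172 to 1077 and 459 CPM, and Tspan8 from 231 and 133 to 595 and 299. Sox9 went from 81.2 and 25.6 to 129 and 97.4 CPM, and Cldn4 from 21.8 and 3.14 to 136 and 91.2. The part of adipocyte RNA in the Lpl, Cd36, Fabp4 and Pparg values was not tested, nor that of cholangiocyte or endothelial RNA in Pparg.

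**Figure D2:**
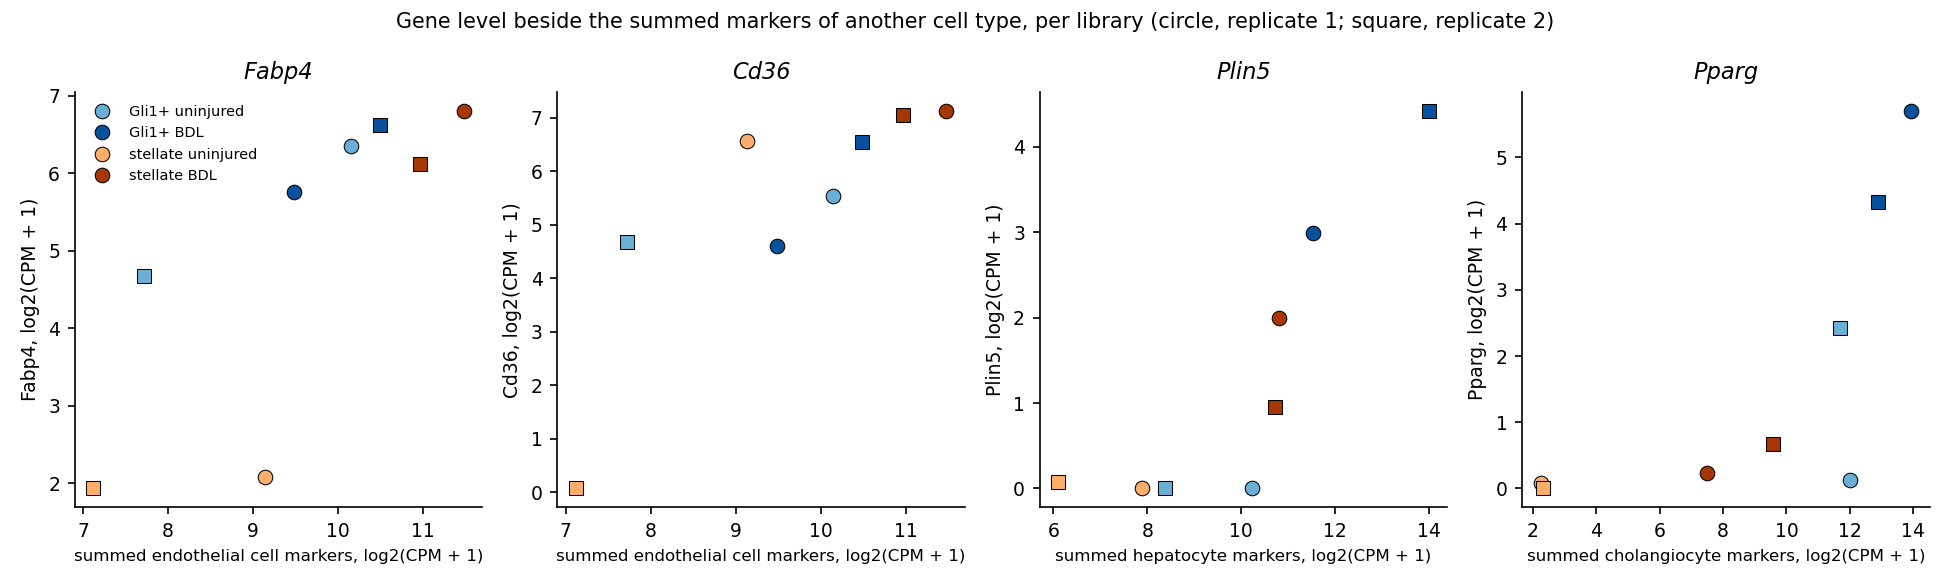
Levels of Fabp4 and Cd36 against the summed endothelial markers, of Plin5 against the hepatocyte markers and of Pparg against the cholangiocyte markers, all as log2(CPM + 1), with 1 point per library and colours for the 4 groups. Fabp4 was lowest in the 2 uninjured stellate libraries, and Plin5 lay at or near 0 in the 4 libraries of lowest hepatocyte sum.

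Counted over the 10 genes, 1 was called in uninjured Gli1+ against stellate cells (Fabp4, higher) where 11.1% of all genes tested were called, 8.06% as higher. After BDL 1 of 10 was called (Pparg, higher) against 6.8% of all genes, 4.44% as higher. In the response of Gli1+ cells limma called 0 of 10 and 0% of all genes, with 3 of the 10 (Plin5, Dgat2 and Pparg) and 1812 genes in all at an unadjusted p under 0.05. There edgeR and limma-voom called 0 of the 10 and 0 genes in all, and DESeq2 called 2 of the 10 and 412 genes in all. In the response of stellate cells 1 of 10 was called (Fabp4, higher) against 0.225% of all genes. The test of the difference between responses called 0 of 10, against 0.0122% of all genes. There 2 of the 10 (Fabp4 and Pparg) and 1230 genes in all had an unadjusted p under 0.05. DESeq2 called 1 of the 10 and 389 genes in all. The first 2 counts lie near the background.

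Groups did not overlap for 5 of the 10 genes in uninjured liver, 4 above and 1 below in Gli1+ cells, against 45.7% of all genes tested (31.1% above and 14.6% below). For Pparg, 1 of the 4 above, the lower Gli1+ and the higher stellate library held 1 read each, so that only their depths set them apart. After BDL 8 of the 10 did not overlap, 5 above and 3 below in Gli1+ cells, against 53.9% (34.8% above and 19% below). Within populations, 4 of the 10 in Gli1+ cells did not overlap, each above after BDL, against 41.3% of all genes (25.1% above and 16.2% below). In stellate cells 8 of the 10 did not overlap, 7 above and Plin2 below after BDL, against 39.6% (27.4% above and 12.2% below). Pparg is again among them, with 3 reads in the lower BDL library against 1 in the higher uninjured one. The median log2 difference of the 10 between populations was 0.87 in uninjured and 0.25 in BDL liver, beside 0.32 and 0.23 over all genes tested. The median log2 response was 0.57 in Gli1+ and 0.92 in stellate cells, beside 0.12 and 0.19. A log2 value above 0 was found for 6 and 5 of the 10 in the uninjured and BDL comparisons of populations, beside 61.7% and 60.4% of all genes. It was found for 6 of the 10 in the Gli1+ response and 9 of the 10 in the stellate response, beside 56.1% and 60.8%, and for 4 of the 10 in the difference of responses, beside 44.8%. The 2 comparisons between populations and the 2 responses share libraries, so the counts are not independent of each other.

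**Figure D3:**
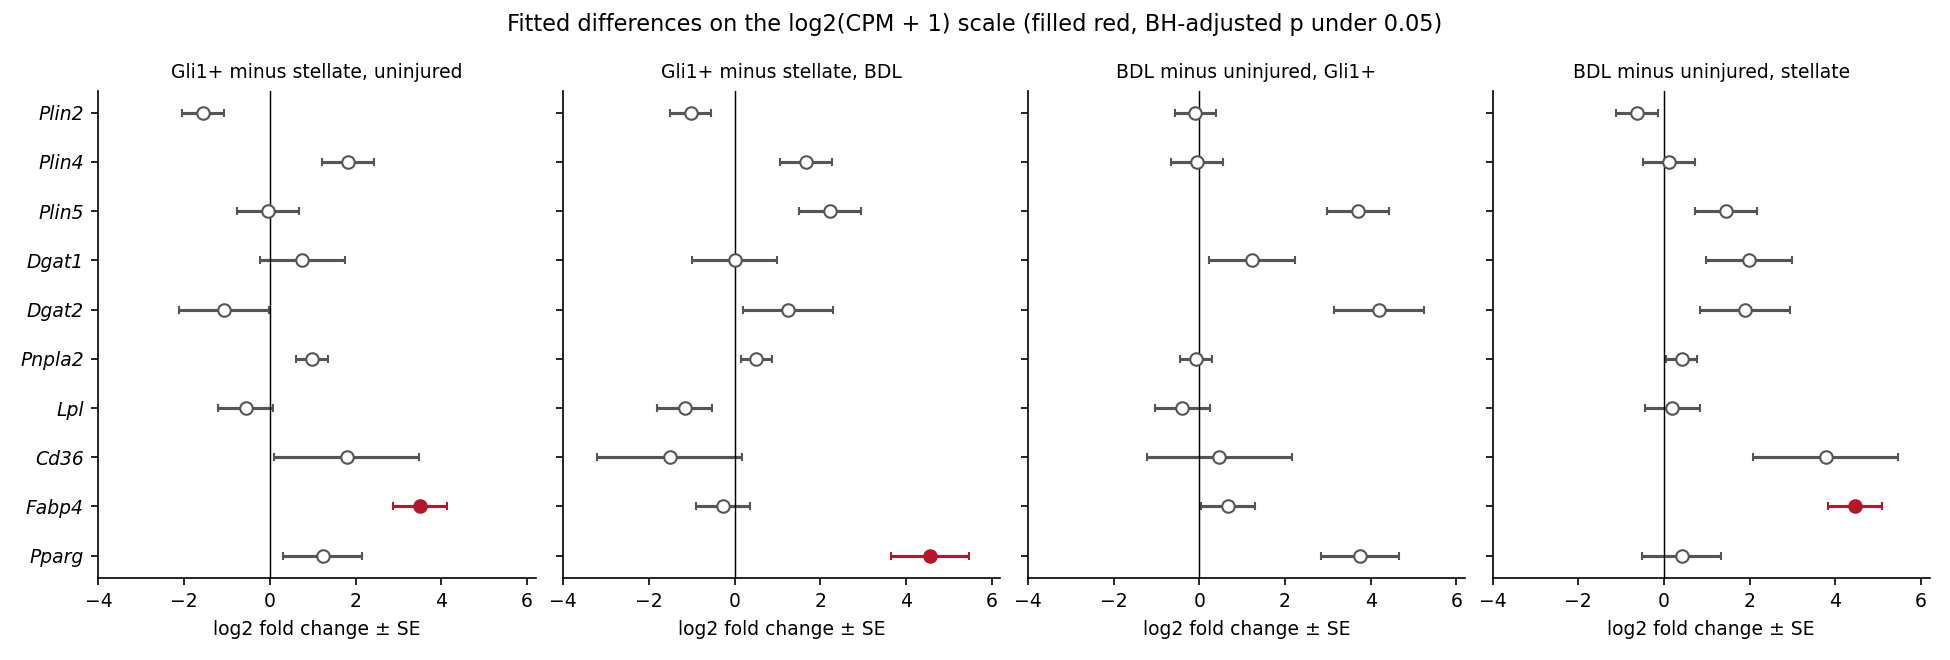
Log2 fold changes of the 10 genes on the log2(CPM + 1) scale in the 2 comparisons of populations and the 2 responses to BDL, 1 panel each, with bars of 1 SE from the limma fit and filled red points where the adjusted p was under 0.05. Filled points were Fabp4 in uninjured liver and in the stellate response, and Pparg after BDL.

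Levels can be ranked between genes only per length of exon. The length used was the union of all annotated exons. For Fabp4 this came to 4489 bases, its whole gene span. Its level per kb may therefore be understated, and its rank against the other genes is uncertain. In uninjured stellate cells Plin2 stood first at 116 ± 23.1 CPM per kb (SD, n = 2), above Lpl at 30.8, and both were separated from their neighbours. Pnpla2, Cd36, Dgat1, Dgat2 and Fabp4 followed at 13.3 to 0.675 CPM per kb, each overlapping its neighbour, and Plin5, Pparg and Plin4 were at or near 0. In uninjured Gli1+ cells Plin2 at 42.7 ± 25.3 overlapped Pnpla2 at 27.0. Lpl at 23.2, Fabp4 at 11.8 and Cd36 at 9.78 followed with overlap, and Dgat1 stood apart below them at 4.20 CPM per kb. In the first uninjured Gli1+ library Plin2 at 24.8 lay below Lpl at 33.6 and Pnpla2 at 31.1 CPM per kb.

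After BDL the order in Gli1+ cells was Plin2 at 37.9 CPM per kb, then a run of 8 genes that each overlapped the next, from Pnpla2 at 25.4 to Plin5 at 6.55. Plin2 was separated from Pnpla2 but not from Lpl, which at 7.95 and 30.7 CPM per kb reached above the lower Plin2 value of 27.3. Pparg stood in that run at 11.9, and Plin4 lay apart at 0.472 CPM per kb. In BDL stellate cells Plin2 led at 74.9, Cd36 at 37.7 and Lpl at 35.1 overlapped, and Fabp4 at 20 overlapped Pnpla2 at 18.1. Dgat1 at 9.89, Dgat2 at 4.92, Plin5 at 0.937, Pparg at 0.130 and Plin4 at 0.0152 CPM per kb each lay apart from the next.

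**Figure D4:**
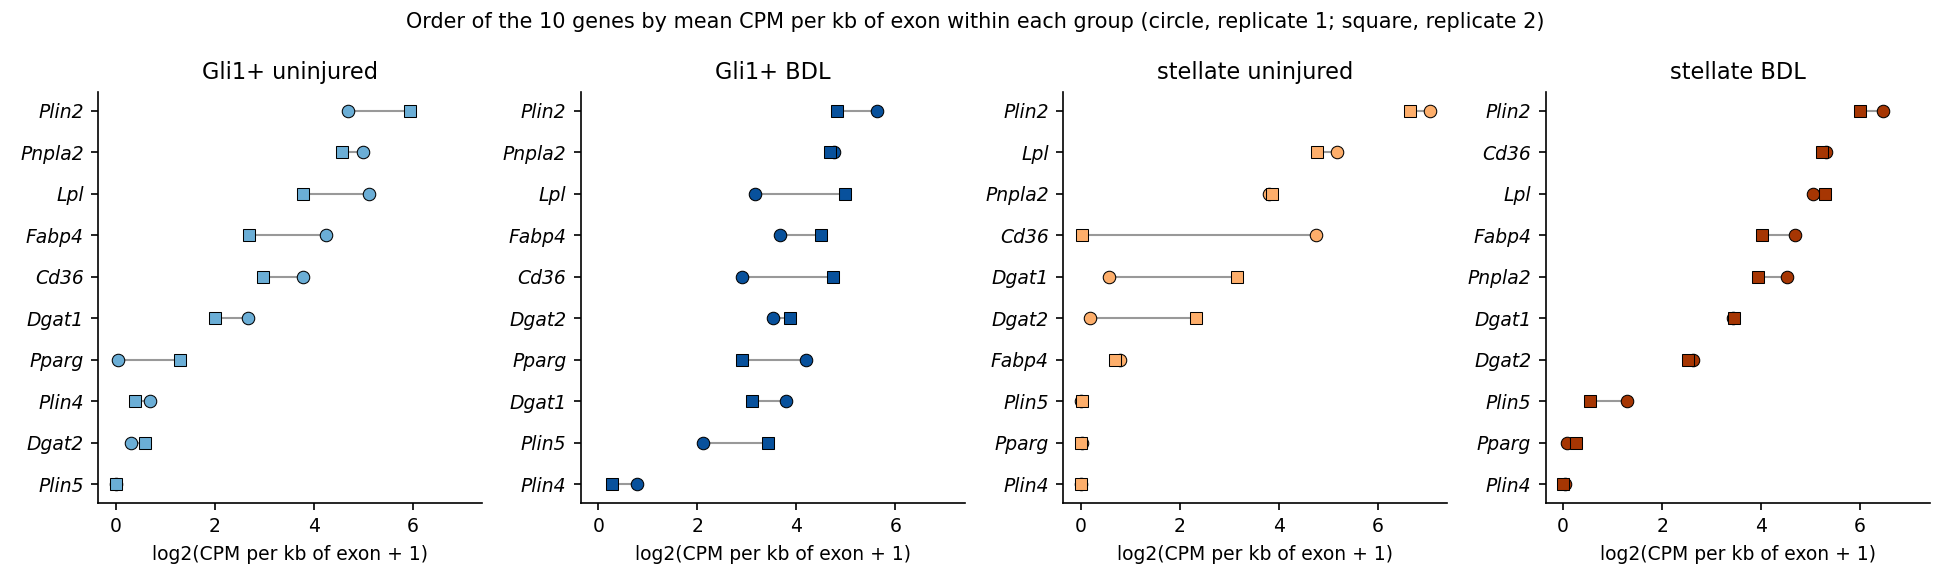
The 10 genes ordered by mean CPM per kb of exon within each of the 4 groups, plotted as log2(CPM per kb + 1), with a circle for replicate 1, a square for replicate 2 and a line joining them. Plin2 had the highest mean in all 4 groups, though not in every library, and Plin4 had the lowest mean in both BDL groups. The exon length of Fabp4 covers its whole gene span, so its place is uncertain.

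Other genes of the pathway were read from lists of related function, each given by the number called among those tested and the median log2 difference of Gli1+ from stellate cells. They are to be read beside the 11.1% of all genes called in uninjured liver (8.06% higher) and 6.8% after BDL (4.44% higher), and beside the medians over all genes of 0.32 and 0.23. Of 13 tested droplet proteins outside the 10 genes, such as Rab18, a droplet GTPase at 171 to 383 CPM, and Aup1, a droplet ubiquitination factor at 106 to 230 CPM, none was called by limma in any comparison, and the list medians were 0.00 and 0.16. Of 10 lipolysis genes, 1 was higher and 2 lower in uninjured Gli1+ than in stellate cells, and 1 was lower after BDL, with list medians of 0.31 and 0.17. The higher one was Ces1d, a carboxylesterase that hydrolyses triglyceride, at 137 and 44.8 against 1.71 and 0.0521 CPM (5.56 ± 0.90, limma adjusted p = 0.00618). The lower ones were G0s2, in both conditions, and the lysosomal acid lipase gene Lipa in uninjured liver (-1.44 ± 0.35, limma adjusted p = 0.0311), a call lost in 9 of 19 alternatives.

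Of 15 tested genes of glycerolipid synthesis upstream of diacylglycerol, 1 was higher and 3 were lower in uninjured Gli1+ than in stellate cells, with list medians of 0.53 and, after BDL, 0.55. Gpat3, an acyltransferase of the endoplasmic reticulum, was the higher one (3.84 ± 0.91, limma adjusted p = 0.0293). Gpat2, a mitochondrial acyltransferase relative, was lower by 6.99 ± 0.92 (limma adjusted p = 0.0024) and again after BDL, where it was the only call of the list (-6.32 ± 0.92, limma adjusted p = 0.00604). Lpin2, a phosphatidate phosphatase, and Agpat3 were the other lower genes (-2.60 ± 0.52 and -1.44 ± 0.35, limma adjusted p = 0.015 and 0.0336), and the Agpat3 call was lost in 10 of 19 alternatives.

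Of 19 tested genes of fatty acid transport, activation and binding, 4 were higher and 1 was lower in uninjured Gli1+ than in stellate cells, and 2 were higher after BDL, with list medians of 0.91 and 1.20. Cav1, the caveolar coat protein that helps fatty acids cross the membrane, was higher by 8.97 ± 0.54 in uninjured liver and by 4.20 ± 0.54 after BDL (limma adjusted p = 0.000126 and 0.0036). It was also the only gene of these lists called in the response of stellate cells, from 0.367 and 0.104 CPM to 12.4 and 21.3 CPM (3.81 ± 0.54, limma adjusted p = 0.0406), a call lost in 13 of 19 alternatives, TMM among them. Slc27a3 of the acyl-CoA synthetase family, the binding protein gene Fabp5 and the acyl-CoA binding gene Dbi were the other higher genes in uninjured liver, by 4.37 ± 0.83, 3.97 ± 0.79 and 2.18 ± 0.34. Dbi was higher after BDL too (1.93 ± 0.34, limma adjusted p = 0.0128), and Slc27a6 was the lower gene in uninjured liver (-2.39 ± 0.58, limma adjusted p = 0.0319), lost in 12 of 18 alternatives.

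Of 13 tested partners of lipoprotein lipase and lipoprotein receptors, 1 was higher and 1 lower in each comparison of the populations, with list medians of 0.11 and -0.50. Vldlr, a receptor that takes up triglyceride-rich particles, was higher in Gli1+ cells by 4.56 ± 0.74 in uninjured and by 4.09 ± 0.74 in BDL liver (limma adjusted p = 0.00622 and 0.0142). The HDL receptor gene Scarb1 was lower in uninjured liver (-2.60 ± 0.40, limma adjusted p = 0.00507), and the remnant receptor gene Lrp1 was lower after BDL (-2.11 ± 0.35, limma adjusted p = 0.0103).

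Of 16 transcription factors and coactivators of the PPAR, RXR and lipogenic families, 1 was higher and 2 were lower in uninjured Gli1+ cells, and 1 was higher and 1 lower after BDL, with list medians of 0.42 and 0.53. Ppargc1a, a coactivator of PPAR factors, was higher in both, at 3.02 and 3.42 CPM before and 5.16 and 5.63 after BDL against 0 in all 4 stellate libraries (limma adjusted p = 0.0479 and 0.0243). Klf15 and Rxra, the partner receptor of PPARγ, were lower in uninjured liver (-2.83 ± 0.75 and -2.37 ± 0.63, limma adjusted p = 0.046 and 0.0466), and Cebpd was lower after BDL (-2.61 ± 0.51, limma adjusted p = 0.0192). The uninjured calls of Ppargc1a, Klf15 and Rxra were each lost in at least 12 of 19 alternatives. Of 20 genes of mitochondrial fatty acid oxidation only Etfa, an electron transfer flavoprotein subunit, was called, higher in both comparisons (1.42 ± 0.32 and 1.43 ± 0.32, limma adjusted p = 0.023 and 0.0304). The list medians were 0.60 and 0.57. Both Etfa calls were lost under TMM scaling. Fitting only the 2 groups compared ended every uninjured call named from these lists, and each of their BDL calls was lost on leaving out at least 1 BDL library. No gene of these lists was called by limma in the response of Gli1+ cells or in the difference between responses.

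Likeness of pattern was measured as Pearson's r of log2(CPM + 1) over the 8 libraries, which share groups and depth, among 8086 genes of at least 20 CPM on average. The closest genes were Pnrc2 (0.985) for Plin2, Anxa13 (0.986) for Plin4, Serpinf2 (0.956) and Saa2 (0.955) for Plin5, and Pcgf5 (0.969) for Dgat1. They were Rabl2 (0.953), followed by Lman1 and Tdo2, for Dgat2, Limk2 (0.981) for Pnpla2 and Ttc28 (0.951) for Lpl. Cd36 was closest to Stab2 (0.979) and the mannose receptor gene Mrc1 (0.977). Fabp4 was closest to Stag1 (0.982), with the endothelial and podocyte sialomucin gene Podxl (0.976) close behind, and Pparg was closest to Mmrn1 (0.985). In Gli1+ cells Mmrn1 measured 0 and 2.62 CPM before and 190 and 29.0 CPM after BDL, against 0.0521 to 0.17 CPM in stellate cells. It was called in BDL Gli1+ against stellate cells (6.09 ± 1.03, limma adjusted p = 0.0106). The cell type that gave the Mmrn1 reads was not tested. Serpinf2, Saa2 and Tdo2 are genes of hepatocytes, and Stab2 is a gene of liver sinusoidal endothelium. Mrc1 is made there too but is not particular to that cell type. It measured 233 and 7.14 CPM in the uninjured stellate libraries, whose macrophage sums were 11317 and 67.1 CPM. With 8 libraries in 4 groups such values are a description only.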

How the data were processed

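Values were CPM, which the authors deposited as normalized counts per the file headers, each library summing to 1000000. The submitters' processing notes list FastQC, STAR 2.5.2b, featureCounts, DESeq2 and mm10 and do not give their roles. For annotation, strand and multiply matching reads, the treatment was not given in the sources used here. Every value was a whole multiple of 1 read within 0.1 read (100.0% of values), so reads could be recovered. Of 30395 identifiers 30214 matched GENCODE vM21, which gave symbols, places and exon lengths. The main test, limma-trend (package version 3.58.1 under R 4.3.3), used log2(CPM + 1) of 16446 genes that reached 1 CPM in 2 or more of the 8 libraries. It fitted 4 group means (4 residual degrees of freedom) with Benjamini-Hochberg adjustment over all genes and a threshold of 0.05. The fit was also run on simulated counts as a check of its code. That check changed no gene of low level and does not bear on how sure the calls here are. Alternatives were pseudocounts 0.5 and 5, no filter or 5 CPM, TMM, DESeq2 size factors, edgeR 4.0.16, limma-voom, DESeq2 1.42.0, a replicate block, only the 2 groups compared, and leaving out each library. The 10 genes and the lists were chosen with earlier results of these data known. Named were all 10, up to 3 called genes per list, comparison and direction by size, 2 genes of highest CPM from a list with no call, and up to 3 genes of closest pattern per gene. Hdgfl2 was added for its overlap.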

Additional observations from a re-analysis of the deposited data

How the results depend on the processing

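Each of the 50 member fold changes was recomputed under up to 19 alternatives. They were fewer where a gene fell below a filter and in the difference of responses, to which fitting only the 2 groups compared does not apply. Of 935 values, 872 kept direction and side of the threshold, 23 lost and 12 gained a call, and 28 changed sign, none of them while called. With 2 libraries a group, depth of a few reads limits Plin4, Plin5 and Pparg. The cause was not tested for any change below.

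Members called in uninjured Gli1+ against stellate cells (1 in the main fit) were 2 with TMM and with DESeq2 size factors (Plin2 added), 4 with DESeq2 and 0 with only the 2 groups compared. After BDL (1) they were 0 with edgeR, limma-voom and no filter. In the Gli1+ response (0) they were 2 with DESeq2. In the stellate response (1) they were 0 with TMM, DESeq2 size factors, limma-voom, no filter, only the 2 groups compared, pseudocount 5 and the replicate block. In the difference of responses (0) DESeq2 called 1. Leaving out each library gave 0 to 2, 0 to 1, 0 to 0, 0 to 2 and 0 to 0 in the same order.

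All genes called were 1822, 1118, 0, 37 and 2. In the uninjured comparison they were 2996 with DESeq2, 810 with no filter and 0 with only the 2 groups compared. After BDL they were 621 with edgeR and 592 with limma-voom. In the Gli1+ response they were 412 with DESeq2, 3 with the 5 CPM filter, 127 with no filter and 49 with pseudocount 5. In the stellate response they were 1023 with DESeq2, 23 with DESeq2 size factors and with TMM, 62 with edgeR, 0 with limma-voom, 6 with no filter, 0 with only the 2 groups compared, 19 with pseudocount 5 and 18 with the replicate block. For the difference they were 389 with DESeq2, 11 with edgeR and 0 with limma-voom, no filter, pseudocount 5 and the replicate block. Leaving out each library gave 1022 to 1808, 145 to 1375, 0 to 5, 0 to 219 and 0 to 33. The median of all genes moved under TMM from 0.32 to 0.14 in the uninjured and from 0.23 to 0.09 in the BDL comparison.

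Leaving out each library turned the sign of 16 member fold changes, none of them called in the main fit. Their ranges in the Gli1+ response were -0.73 to 0.55 for Plin2, -0.65 to 0.55 for Plin4, -0.29 to 0.14 for Pnpla2, -1.37 to 0.57 for Lpl, -0.51 to 1.45 for Cd36 and -0.17 to 1.52 for Fabp4. In uninjured Gli1+ against stellate cells they were -0.92 to 2.43 for Dgat1, -2.69 to 0.55 for Dgat2, -1.26 to 0.14 for Lpl and -1.45 to 5.04 for Cd36, and after BDL -0.71 to 0.16 for Fabp4. They were -0.01 to 0.40 for Lpl in the stellate response. In the difference of responses they were -0.10 to 1.18 for Plin2, -0.77 to 0.43 for Plin4, -2.44 to 0.91 for Dgat1 and -1.56 to 0.37 for Lpl. DESeq2 and edgeR gave -0.27 and -0.32 for Dgat1 and -0.56 and -0.57 for Cd36 in uninjured liver, and 0.18 and 0.19 for Dgat1 in the difference.

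Same-numbered libraries correlated in their deviations from group means by -0.112 to 0.112, so the numbers were not taken as pairs. With the replicate block 1566, 943, 0, 18 and 0 genes were called, and 1, 1, 0, 0 and 0 members.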
